A study of Mus musculus with 18 samples.

Results

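The 9 genes described here encode components and receptors of the complement system, and they were chosen by name from the 56953 gene identifiers counted in each library. They are the C1q chains C1qa, C1qb and C1qc, the components C3 and C4b, the anaphylatoxin receptors C3ar1 and C5ar1, and Itgam and Itgb2, the chains of complement receptor 3. RNA was sequenced from mouse frontal cortex separated by immunopanning, a method that catches cells on antibody-coated dishes, into a microglia (CD45), an astrocyte (HepaCAM) and a neuron (Thy1) fraction. Mice of all groups, controls included, were of the line B6;D2-Tg(S100B-EGFP)1Wjt/J, in which the S100B promoter drives EGFP. Daily intraperitoneal injections gave vehicle or 1 of 2 antipsychotic drugs, clozapine (10 mg/kg) and risperidone (1 mg/kg), for 14 days, from postnatal day 60 to 74, and tissue was taken on day 75. Cortices of 5 animals were pooled and gave 1 library of each fraction, and each treatment had 1 pool in batch 1 and 1 in batch 2, so the 18 libraries formed 9 groups of n = 2. The labels are at odds over sex, giving both sexes in the study's design but males alone in the account of housing, and they do not say what a batch shared.

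Complement is a chain of proteins that tags cells, debris and, in the brain, synapses for removal. C1q binds the target and starts the classical pathway, C4 and C3 are then cleaved and deposited, and complement receptor 3 on microglia recognises the deposited C3 fragments. The small fragments C3a and C5a act on the receptors C3AR1 and C5AR1. In the brain C1q and these receptors are known as products of microglia and other macrophages, while astrocytes are a known source of C4 and, in disease, of C3.

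Libraries held 4.71 to 13.39 M counts assigned to genes (median 7.44 M). Levels are given as counts relative to library size, scaled by the trimmed mean of M values (TMM-scaled CPM), and comparisons between genes as CPM per kb of exon. The summed level of 10 microglia markers was 2715 to 5788 CPM in the microglia, 291 to 645 in the astrocyte and 106 to 776 in the neuron libraries. The astrocyte fraction held 9252 to 17705 CPM of 10 astrocyte markers, but also 6959 to 44002 of 10 oligodendrocyte markers. The neuron fraction held 4019 to 9160 CPM of 10 neuron markers and 7588 to 38718 of the same oligodendrocyte markers. Astrocyte markers summed to 3512 to 9027 CPM in the neuron and 1391 to 3896 in the microglia libraries. By these levels each fraction, named for its antibody, was a mixture. All 10 genes of each of these lists were detected in every library. A single count is enough for that, so detection alone cannot show a mixture. In such bulk libraries, fewer cells of a type and less RNA per cell cannot be told apart.

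The C1q chains, both anaphylatoxin receptors and both chains of complement receptor 3 were higher in the microglia fraction than in the astrocyte fraction, by 7.25-fold for C1qc to 21.4-fold for C3ar1. C4b was the exception, 2.04-fold higher in the astrocyte fraction. C3 had the lowest level per kb after C4b in microglia and did not pass the test between microglia and astrocytes. Of the 9 genes, 7 passed as higher in microglia than in astrocytes, against 6.18% of the 37310 genes tested, and 1 passed as lower, against 6.85% (edgeR quasi-likelihood test on all 18 libraries, Benjamini-Hochberg adjusted p under 0.05). Against neurons, 8 passed as higher in microglia, against 28.2% of all genes. Between astrocytes and neurons, C1qa, C3 and C4b passed as higher in astrocytes, 3 of 9 against 14.6% of all genes. The median log2 difference of the 9 genes was 3.01, 3.98 and 0.92 in these 3 comparisons, and that of all genes tested was 0.02, 0.62 and 0.46.

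**Figure D1:**
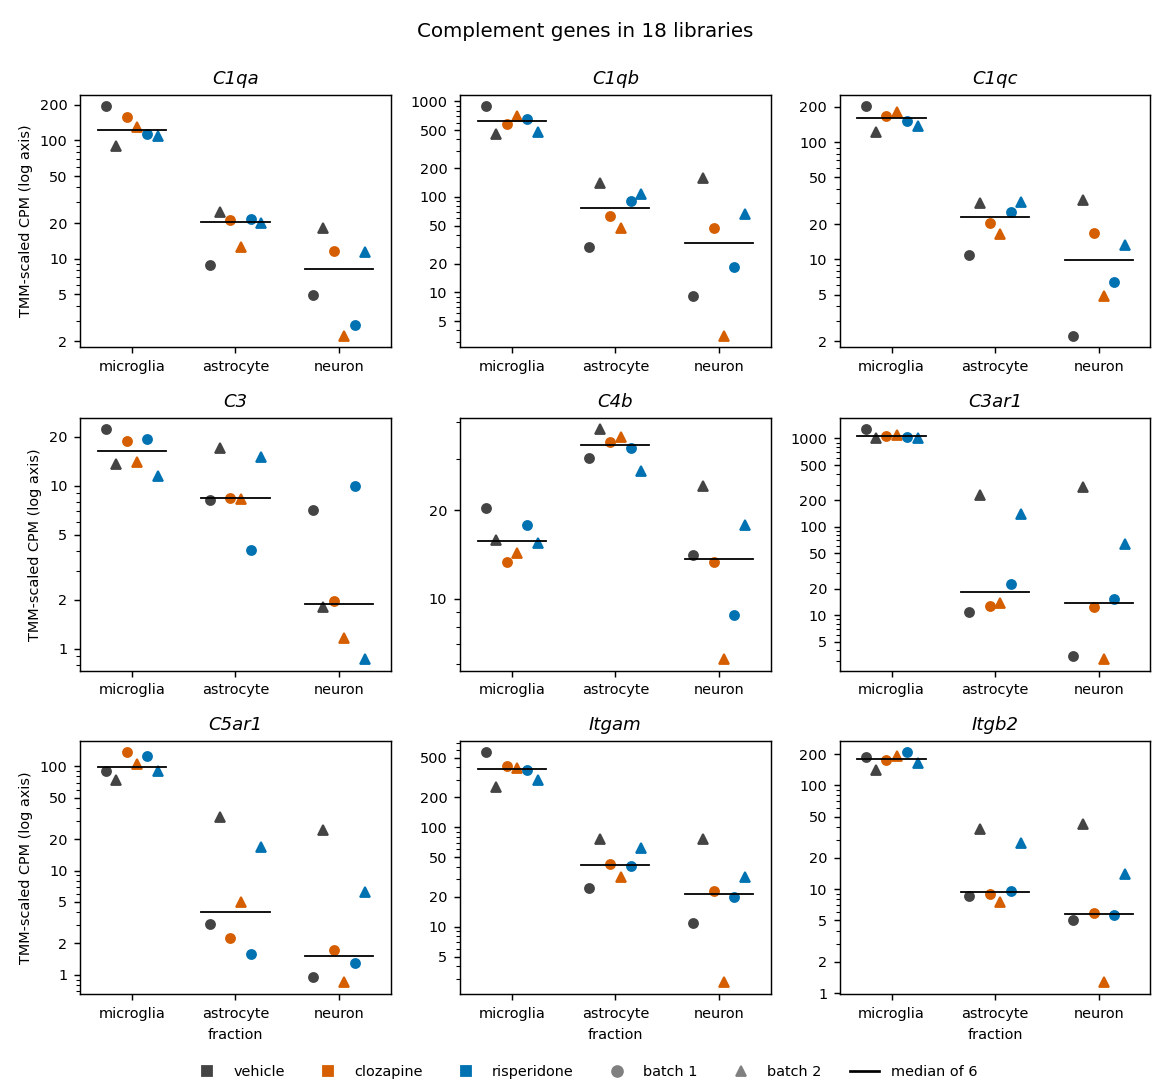
TMM-scaled CPM (log axis) of the 9 complement genes in each of the 18 libraries, by fraction. Colours are treatments, circles are batch 1, triangles are batch 2, and bars are medians of 6 libraries. Microglia libraries lie above all others for 7 genes, C4b is highest in astrocyte libraries, and C3ar1, C5ar1 and Itgb2 are raised in the vehicle and risperidone batch 2 libraries of the astrocyte and neuron fractions.

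In libraries, the separation was complete for most of the genes. All 6 microglia libraries lay above all 6 astrocyte libraries for 7 of 9 genes, against 5.59% of all genes, and below them for C4b alone, against 3.91%. All 6 microglia libraries lay above all 6 neuron libraries for 8 of 9 genes, against 10.2%, the exception being C4b. Between astrocytes and neurons only C4b was separated, higher in all 6 astrocyte libraries, against 2.57% of all genes.

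C1qa, C1qb and C1qc encode the A, B and C chains of C1q, which assemble into 1 protein. They lie next to each other on the minus strand of chromosome 4 (GRCm39): C1qb at chr4:136607440-136613498, C1qc at chr4:136617115-136620376 and C1qa at chr4:136623228-136626114. C1qb was the most abundant of the 9 genes per length in microglia, with 414 CPM per kb in the lowest library, a median of 567 and 822 in the highest. Its CPM was 895 and 450 in the vehicle microglia libraries of batch 1 and 2, 577 and 695 with clozapine, and 658 and 482 with risperidone. In the astrocyte libraries it was 30.0 and 139, 63.5 and 47.7, and 90.5 and 107 in the same order. The neuron libraries held 9.18 and 157, 47.2 and 3.49, and 18.6 and 65.5 CPM. The lowest microglia library thus lay above the highest of the other 12, while the neuron libraries spread over 45.0-fold.

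C1qa ranged from 90.2 through a median of 122 to 195 CPM in microglia, 8.86 through 20.6 to 25.0 in astrocytes and 2.22 through 8.13 to 18.1 in neurons. C1qc ranged from 122 through 160 to 204, from 11.0 through 22.9 to 31.0 and from 2.22 through 9.79 to 32.0 CPM in the same fractions. Microglia stood above the other fractions in every library for both chains. The log2 difference between microglia and astrocytes was 2.86 for C1qa (SE 0.40, edgeR adjusted p = 2.15e-05), 3.01 for C1qb (SE 0.58, adjusted p = 0.000622) and 2.86 for C1qc (SE 0.42, adjusted p = 3.94e-05). Against neurons the edgeR differences were 4.00 for C1qa (SE 0.42, adjusted p = 5.41e-07), 3.81 for C1qb (SE 0.60, adjusted p = 4.17e-05) and 3.72 for C1qc (SE 0.44, adjusted p = 1.93e-06). Per kb of exon, the level of C1qb was 3.48 to 5.55 times and that of C1qc 0.561 to 0.755 times that of C1qa in the microglia libraries. In astrocytes these ratios of CPM per kb were 2.87 to 5.31 and 0.524 to 0.836, so the ranges overlapped, and in neurons, with as few as 14 counts of C1qc in a library, they were 1.50 to 8.27 and 0.243 to 1.25.

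The promoters of C1qb and C1qc, which moved together, are shown beside those of Itgam and C3ar1, which were also high in microglia. Each is the 250 bases before the gene's start in RefSeq (GRCm38.p6), which matched 6 of the 9 genes, and C1qa, C4b and Itgb2 are named only. Capitals mark GAGGAA, a core that the myeloid factor PU.1 can bind, or its complement TTCCTC, and in C3ar1 TGANTCA, the AP-1 motif. The motifs were chosen after the sequences were seen, and both strands were searched. C1qb is at chr4:136886201-136886450, C1qc at chr4:136892915-136893164, both on the minus strand.
C1qb: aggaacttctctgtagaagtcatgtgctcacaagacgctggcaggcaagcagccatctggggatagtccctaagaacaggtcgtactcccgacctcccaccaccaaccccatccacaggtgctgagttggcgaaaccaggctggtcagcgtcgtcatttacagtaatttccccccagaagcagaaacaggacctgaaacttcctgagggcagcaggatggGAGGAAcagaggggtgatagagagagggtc
C1qc: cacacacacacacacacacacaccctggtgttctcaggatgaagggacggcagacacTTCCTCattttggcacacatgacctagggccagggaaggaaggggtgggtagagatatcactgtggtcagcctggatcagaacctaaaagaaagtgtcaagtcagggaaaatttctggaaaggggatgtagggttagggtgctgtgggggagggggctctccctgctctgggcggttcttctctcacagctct
Itgam: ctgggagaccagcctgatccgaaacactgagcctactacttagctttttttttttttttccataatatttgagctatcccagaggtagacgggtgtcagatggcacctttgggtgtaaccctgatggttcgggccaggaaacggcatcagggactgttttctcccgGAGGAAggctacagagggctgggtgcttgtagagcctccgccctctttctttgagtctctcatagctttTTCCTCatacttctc
C3ar1: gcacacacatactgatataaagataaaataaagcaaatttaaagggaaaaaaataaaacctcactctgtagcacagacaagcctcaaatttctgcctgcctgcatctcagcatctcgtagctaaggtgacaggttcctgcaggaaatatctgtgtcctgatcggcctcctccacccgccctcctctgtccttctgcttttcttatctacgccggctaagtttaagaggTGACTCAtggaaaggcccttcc
GAGGAA occurred on either strand in the C1qb, C1qc and Itgam windows, and in 23.3% of all 32851 promoter windows of the same length. TGANTCA occurred in the C3ar1 window, 22 to 16 bases before the start, and in 6.75% of all windows. Neither run of letters was in the C3 or C5ar1 window. The Itgam window is at chr7:128062390-128062639 on the plus strand, and that of C3ar1 at chr6:122856158-122856407 on the minus strand. A match describes the letters only.

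Itgam and Itgb2 encode CD11b and CD18, which pair on the cell surface as complement receptor 3. Itgam lies at chr7:127661812-127717663 and Itgb2 at chr10:77366086-77401542, both on the plus strand of GRCm39. Itgam was 563 and 253 CPM in the vehicle microglia libraries, 410 and 396 with clozapine, and 376 and 297 with risperidone. It ranged from 24.3 through a median of 41.4 to 76.6 CPM in astrocytes and from 2.75 through 21.2 to 76.4 in neurons. Itgb2 ranged from 140 through 180 to 207 CPM in microglia, from 7.45 through 9.31 to 38.2 in astrocytes and from 1.27 through 5.76 to 42.2 in neurons. For both chains the microglia libraries stood apart from all others. The edgeR log2 difference to astrocytes was 3.06 for Itgam (SE 0.46, adjusted p = 4.68e-05) and 3.53 for Itgb2 (SE 0.46, adjusted p = 1.12e-05). To neurons it was 3.98 (SE 0.48, adjusted p = 2.29e-06) and 4.24 (SE 0.48, adjusted p = 1.10e-06) by edgeR. The gene model Gm49368 shares 3450 exon bases with Itgam on the same strand, 68.7% of Itgam's exons, and reads there counted for both, so the Itgam level includes any reads of Gm49368.

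C3ar1 and C5ar1 encode the receptors for C3a and C5a, which signal through G proteins. C3ar1 (chr6:122824097-122833120, minus strand, GRCm39) had the most even level of the 9 genes across microglia libraries: 1271 and 1016 CPM with vehicle, 1071 and 1097 with clozapine, and 1036 and 1024 with risperidone. In the astrocyte fraction it was 11.0 and 230, 12.8 and 13.6, and 22.8 and 141 CPM in the same order. In the neuron fraction it was 3.48 and 280, 12.5 and 3.17, and 15.2 and 63.9. The batch 2 libraries with vehicle and with risperidone were thus high in both fractions, and the others lay at 22.8 CPM or below. The microglia difference remained in all 6 pools, from 2.14 to 6.80 log2 against astrocytes. The edgeR estimate was 4.42 against astrocytes (SE 0.76, adjusted p = 0.0002) and 4.95 against neurons (SE 0.78, adjusted p = 4.42e-05).

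C5ar1 (chr7:15980668-15993465, minus strand, GRCm39) followed C3ar1 in the same libraries at a lower level. It was 89.3 and 73.4 CPM in vehicle, 136 and 106 in clozapine and 125 and 89.8 in risperidone microglia. In astrocyte libraries it was 3.06 and 32.4, 2.24 and 4.97, and 1.57 and 16.9 CPM. In neuron libraries it was 0.95 and 24.7, 1.71 and 0.845, and 1.30 and 6.17, with as few as 6 counts. Again the vehicle and risperidone libraries of batch 2 were the high ones. The edgeR log2 difference was 3.60 between microglia and astrocytes (SE 0.59, adjusted p = 0.000122) and 4.68 between microglia and neurons (SE 0.64, adjusted p = 8.38e-06).

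C3ar1 and C5ar1 differed from C1qb in their ratio to the microglia marker Cx3cr1, the fractalkine receptor. Over the 18 libraries each correlated with Cx3cr1. The Pearson r of log2 levels was 0.96 for C3ar1, 0.95 for C5ar1 and 0.97 for C1qb. The ratio of C3ar1 to Cx3cr1 was 2.01 to 3.22 in microglia libraries. It was 4.00 and 3.48 in the vehicle and risperidone batch 2 astrocyte libraries and 3.27 and 2.60 in those neuron libraries, but 0.349 to 0.799 in the other 4 astrocyte and 0.431 to 0.861 in the other 4 neuron libraries. So 4 of the 12 libraries matched or exceeded the range of microglia, and 8 lay below it. C5ar1 per Cx3cr1 was 0.141 to 0.390 in microglia. It was 0.565 and 0.418 in the astrocyte and 0.289 and 0.251 in the neuron libraries with high C3ar1, and 0.0551 to 0.207 in the other 8. The range of these 8 overlapped that of microglia, which it did not for C3ar1. C1qb per Cx3cr1 did not separate the same libraries: it was 1.35 to 2.05 in microglia, 1.48 to 3.18 in astrocytes and 0.569 to 2.67 in neurons. The border macrophage markers summed to 81.4 and 80.0 CPM in the 2 astrocyte libraries with high C3ar1, and to 29.8 to 62.6 in the other 4. Neutrophil markers were also highest in these 2 libraries, at 21.9 and 28.0 CPM against 9.76 to 16.5 in the other 4. So were lymphocyte markers, at 28.3 and 27.4 CPM against 5.61 to 17.6, but monocyte markers were not. In the neuron fraction border macrophage markers summed to 51.2 and 24.6 CPM in the libraries with high C3ar1. In the other 4 they summed to 17.0 to 40.2, so there the ranges overlapped. Neutrophil markers (1.56 and 3.09 CPM) and lymphocyte markers (2.88 and 2.47) were not highest in the neuron libraries with high C3ar1. The part of these cell types in the C3ar1 levels was not tested.

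**Figure D2:**
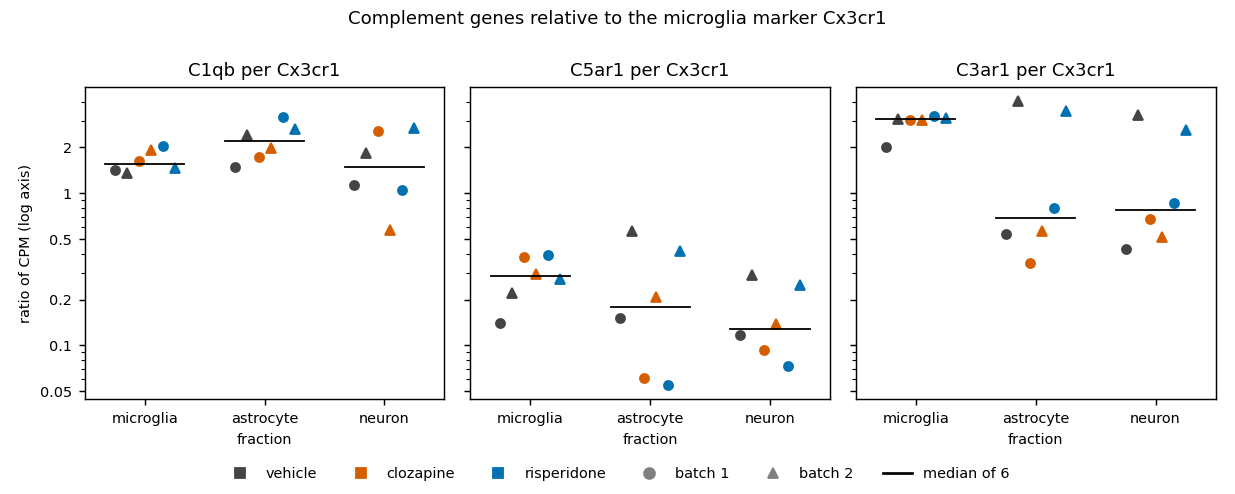
Ratio of the CPM of C1qb, C5ar1 and C3ar1 to that of Cx3cr1 (log axis) in each library, by fraction, with treatments as colours, batches as symbols and medians of 6 as bars. C3ar1 per Cx3cr1 falls into a high set, the 6 microglia libraries and the vehicle and risperidone batch 2 libraries of the other fractions, at 2.01 to 4.00, and a low set at 0.349 to 0.861. C1qb per Cx3cr1 shows no such gap.

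C4b encodes the mouse C4 protein of the classical pathway (chr17:34947354-34962856, minus strand, GRCm39). It ranged from 13.4 through a median of 15.7 to 20.3 CPM in microglia, from 27.2 through 33.4 to 37.7 in astrocytes and from 6.24 through 13.7 to 24.3 in neurons. All astrocyte libraries lay above all others. By edgeR the level was lower in microglia than in astrocytes (log2 -1.03, SE 0.23, adjusted p = 0.00301) and higher in astrocytes than in neurons (log2 1.28, SE 0.23, adjusted p = 0.00318). Microglia and neurons differed by 0.25 (SE 0.23, adjusted p = 0.376), which did not pass. Its near copy C4a was at 8.18 ± 1.63 CPM in microglia, 10.8 ± 3.35 in astrocytes and 5.11 ± 1.96 in neurons (SD, n = 6), and reads common to both copies make the split between them uncertain. C4b also differed from the other members in its 18-library pattern: its closest genes were Ltbp1, Lamb2 and Lrp4 (Pearson r 0.88, 0.87 and 0.86), and those of Itgam included Laptm5 and Csf1r (0.995 and 0.99). For C1qa they were Cmtm6, Siglech and Bmp2k (0.99 each), and for C5ar1 Syk, Zc3h12a and Tlr9 (0.99 each), among 12576 genes of at least 5 CPM, where libraries of a fraction share much of each value.

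C3 encodes the component on which all complement pathways meet (chr17:57510970-57535136, minus strand, GRCm39). It was 22.3 and 13.7 CPM in vehicle, 18.9 and 13.9 in clozapine and 19.4 and 11.5 in risperidone microglia. Astrocyte libraries held 8.21 and 17.1, 8.42 and 8.34, and 4.04 and 15.0 CPM, and neuron libraries 7.12 and 1.80, 1.96 and 1.16, and 10.0 and 0.864. The microglia and astrocyte ranges overlapped, and the edgeR difference of 0.73 did not pass (SE 0.41, adjusted p = 0.355). C3 was higher in microglia than in neurons (log2 2.32, SE 0.44, adjusted p = 0.000286) and in astrocytes than in neurons (log2 1.59, SE 0.44, adjusted p = 0.0154). The call between astrocytes and neurons was lost without the risperidone batch 2 astrocyte library (edgeR log2 1.22, adjusted p = 0.0748). Within batch 1 and batch 2 the difference between microglia and astrocytes was 1.55 and 0.01 log2, and that between astrocytes and neurons 0.28 and 2.95.

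C3 moved with reads on olfactory receptor genes, whose known site is the nose. The 1093 olfactory receptor genes, a list chosen after the values were seen, together held 0.296 to 0.617 CPM per kb in microglia, 0.146 to 0.585 in astrocyte and 0.0343 to 0.294 in neuron libraries. C3 stood at 3.32 to 9.16 times that rate in all 18 libraries, with a Pearson r of 0.96 between the log2 values, against 9.01 to 423 times and 0.59 for C1qa. Within the astrocyte and neuron fractions r was 0.98 and 0.97 for C3 (n = 6 each), and 0.20 in microglia. Other members also moved with the rate within astrocytes, with r of 0.92 for C5ar1, 0.74 for Itgb2 and 0.70 for C3ar1. For the rest it ran from -0.06 for C4b to 0.53 for Itgam. Within neurons r was -0.28 for C5ar1, 0.02 for Itgb2 and -0.17 for C3ar1. With the log2 rate as a covariate, a fit chosen after values were seen, the edgeR C3 difference between microglia and neurons was -0.14 (adjusted p = 0.938) and that between astrocytes and neurons -0.45 (adjusted p = 0.758). Without the 4 libraries of highest rate in these fractions, the batch 2 vehicle and risperidone astrocyte and the batch 1 vehicle and risperidone neuron libraries, the edgeR difference between microglia and astrocytes was 1.41 log2, but these included the 2 astrocyte libraries of highest C3, so the choice itself raised it. The part of such reads in the C3 level was not otherwise tested.

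**Figure D3:**
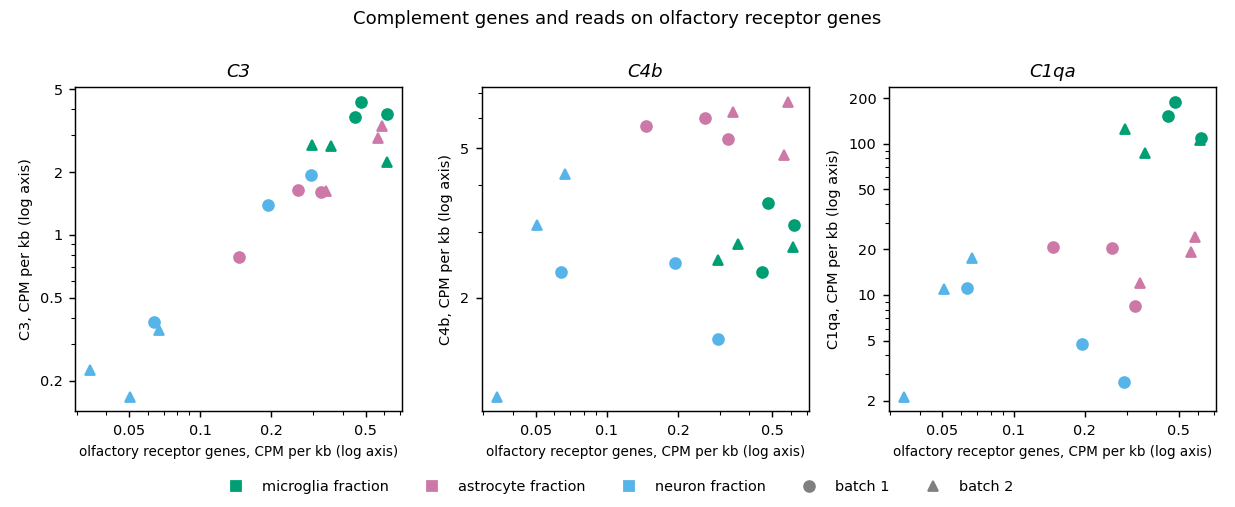
CPM per kb of C3, C4b and C1qa against the CPM per kb of 1093 olfactory receptor genes (both axes log) in the 18 libraries, with fractions as colours and batches as symbols. C3 stands at 3.32 to 9.16 times the olfactory receptor rate. Its Pearson r of log2 values is 0.96 over all libraries but 0.20 within microglia. Over all libraries r is 0.36 for C4b and 0.59 for C1qa.

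Ranked per kb in microglia, C1qb was followed by C3ar1 at a median of 245 CPM per kb, C1qa at 117, C1qc at 82.6, Itgam at 76.8, Itgb2 at 59.0, C5ar1 at 38.2, C3 at 3.19 and C4b at 2.75. C1qb and C3ar1 each stood clear of their neighbours in every library. Along C1qa, C1qc, Itgam, Itgb2 and C5ar1 the ranges of neighbours overlapped, as did those of C3 and C4b. C5ar1, at 28.6 CPM per kb or more, lay clear of C3, at 4.33 or less. In astrocytes the order was C1qb at 70.8, C1qa at 19.8, C1qc at 11.8, Itgam at 8.24, C4b at 5.86, C3ar1 at 4.23, Itgb2 at 3.05, C3 at 1.63 and C5ar1 at 1.56 CPM per kb.

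**Figure D4:**
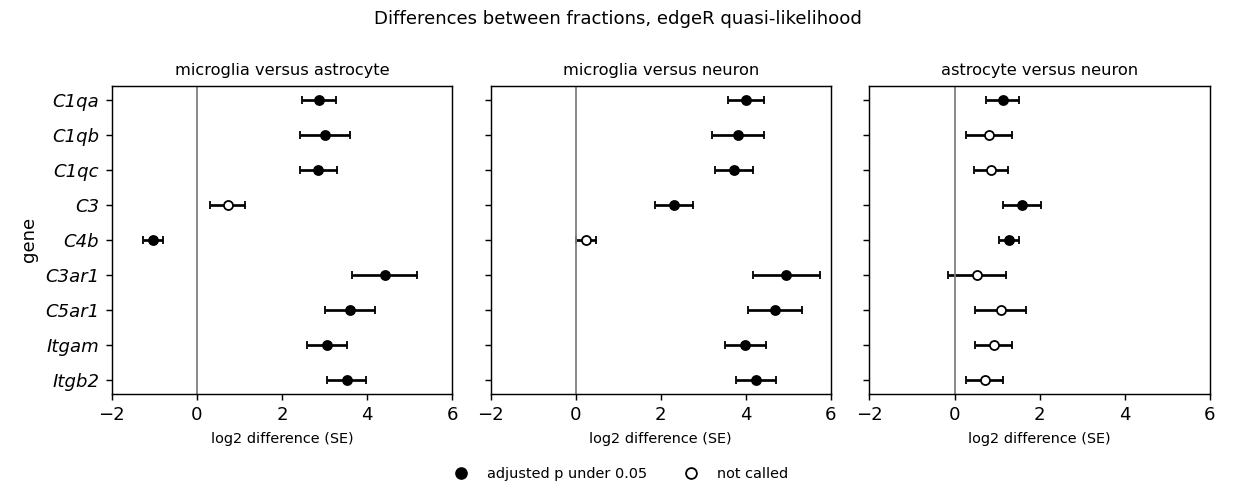
Log2 differences between fractions for the 9 genes, with the SE as bars, from the edgeR quasi-likelihood fit of 18 libraries. Filled circles passed at adjusted p under 0.05 and open circles did not. Differences to microglia run from -1.03 for C4b to 4.95 for C3ar1, and those between astrocytes and neurons from 0.53 to 1.59.

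Between astrocytes and neurons, C1qa passed by edgeR at a log2 difference of 1.13 (SE 0.39, adjusted p = 0.0402). Its call was lost without the vehicle batch 2 or clozapine batch 1 astrocyte library, or the vehicle batch 1, clozapine batch 2 or risperidone batch 1 neuron library; without the first it was lowest (log2 0.90, edgeR adjusted p = 0.116). The differences of C1qb (0.80), C1qc (0.86), C5ar1 (1.09), Itgam (0.92), Itgb2 (0.71) and C3ar1 (0.53) did not pass. Without the vehicle batch 2 neuron library all 9 genes passed as higher in astrocytes, from 1.49 to 2.37 for these 6, beside 7.78% of all genes. Without the clozapine batch 1 neuron library 6 passed, beside 13.3%, and with no filter on low counts 8 passed, beside 13.5%. Leaving out the 4 libraries of high olfactory receptor rate took away both astrocyte libraries with high C3ar1 and C5ar1 but kept both such neuron libraries, and with that choice the signs of C3ar1 and C5ar1 turned (edgeR log2 -1.81 and -1.16). In the 6 vehicle libraries alone, 1 of 9 genes passed between microglia and astrocytes, 5 between microglia and neurons and 0 between astrocytes and neurons, beside 2.41%, 6.1% and 0.00337% of all genes. With the olfactory receptor rate as a covariate, C1qa, C1qc, Itgam and Itgb2 still passed between microglia and neurons, beside 2.84% of all genes, and C1qb, C3ar1 and C5ar1 had differences of 4.72, 5.30 and 4.62 that did not pass (edgeR adjusted p = 0.0717, 0.225 and 0.164).

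The other complement genes were read from 7 lists with 51 members, fixed by pathway. Between microglia and astrocytes 2 of 51 passed as higher in microglia and 3 as lower, shares near the 6.18% and 6.85% of all genes. Itgax, the alpha chain of complement receptor 4, was higher in microglia (edgeR log2 1.82, adjusted p = 0.00146). Clu, clusterin, an inhibitor of the terminal complex, was 178 ± 65.0 CPM in microglia and 811 ± 273 in astrocytes (SD, n = 6; log2 -2.18, SE 0.36, edgeR adjusted p = 0.000129). Cd59a, a membrane inhibitor of the same complex, and Masp1, a lectin pathway protease, were likewise lower in microglia (edgeR log2 -1.51 and -0.79, adjusted p = 0.000521 and 0.0207). Csmd3 (0.64) and C4a (-0.40) did not pass.

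Against neurons 22 of the 51 passed as higher in microglia, beside 28.2% of all genes, and 5 as lower, beside 18.8%. Those of smallest p included Itgax (log2 3.38), C5ar2, the other C5a receptor (3.71), Itgal (2.04) and Vtn, vitronectin (1.19), with Susd4, a membrane regulator, lower in microglia (-1.72, edgeR adjusted p = 6.09e-05). By list, 5 of 7 terminal pathway genes, 5 of 9 lectin pathway genes, 5 of 9 other receptors, 4 of 7 soluble regulators and 3 of 6 other classical pathway genes passed as higher, and 4 of 10 membrane regulators as lower. The 7 terminal pathway genes were near the floor, together at 13.7 to 33.3 CPM in microglia and 1.59 to 13.3 in neuron libraries. Of these genes, 4 to 7 were detected in a neuron library. Between astrocytes and neurons 19 of 51 were higher in astrocytes and 4 lower, beside 14.6% and 9.17% of all genes. They included Vtn (log2 1.65), Masp1 (1.05), C5ar2 (2.48), Itgal (1.59) and C4a (1.12, edgeR adjusted p = 0.0125), while Susd4 was lower (-1.27). Fcnb, a ficolin, was called at levels of 1.90 ± 1.87 and 0.214 ± 0.466 CPM (SD, n = 6). Hc, which encodes C5, correlated with the olfactory receptor rate as C3 did (Pearson r 0.97 of log2 values, n = 18 libraries), and the part of such reads in these calls was not tested.

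The members were also set against microglia RNA. The log2 CPM of each gene (pseudocount 0.5) minus the mean of the 10 microglia markers was compared between fractions with a two-sided exact permutation test of 6 against 6 libraries, adjusted over 27 tests. C1qa gave -0.79 ± 0.18 in microglia, -0.78 ± 0.29 in astrocytes and -1.04 ± 0.56 in neurons (SD, n = 6), and C1qc -0.49 ± 0.23, -0.49 ± 0.33 and -0.61 ± 0.54. For C1qa, C1qb, C1qc and Itgam no difference passed, the values lying within 0.58 of each other (exact permutation, adjusted p from 0.382 to 0.991). C4b was lower per microglia marker in microglia, -3.75 ± 0.32, than in astrocytes, 0.13 ± 0.41, or neurons, -0.12 ± 0.64 (exact permutation, adjusted p = 0.0195 for both, with p = 0.00216, the smallest that 924 relabellings allow). C3 was lower in microglia than in astrocytes by 2.10 (exact permutation, adjusted p = 0.0195). The markers were chosen as high in microglia, so a gene of even level in all fractions comes out lower there by this measure. These marker-relative results for C4b and C3 therefore cannot tell a lower level in microglia from an even one.

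Per microglia marker, C3ar1 gave 2.28 ± 0.29 in microglia, against 0.18 ± 1.63 in astrocytes and 0.42 ± 1.48 in neurons (SD, n = 6). The differences of 2.10 and 1.86 did not pass (exact permutation, adjusted p = 0.136 for both). C5ar1 and Itgb2 also had higher means in microglia, by 1.13 and 0.77 over astrocytes, without passing (exact permutation, adjusted p = 0.310 and 0.142). With border macrophage markers added to the reference, 7 of 9 genes passed between microglia and astrocytes and 6 between microglia and neurons, against 2 and 1. With Cx3cr1 alone as the reference 5 and 1 passed, and between microglia and astrocytes C1qb and Itgam turned to -0.41 and -0.42 (exact permutation, adjusted p = 0.175 and 0.0292). Which genes passed therefore depended on the markers used. Only the 9 genes were put to this test, so no share of all genes can be set beside these counts.

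None of the 9 genes passed the test for either drug in any fraction. With 2 libraries per group, this does not show that the drugs left them unchanged. In microglia, 0 of 9 passed for clozapine against vehicle, risperidone against vehicle or clozapine against risperidone, and 0% of the 32846 genes tested did (edgeR quasi-likelihood, 6 libraries). At an unadjusted p under 0.05 stood 0 of the 9 and 3.17%, 4.28% and 7.38% of all genes, and DESeq2 called 0 of the 9 and 1, 0 and 1 of all genes. The log2 differences of the 9 genes ran from -0.44 to 0.52 with clozapine (median -0.07) and from -0.29 to 0.47 with risperidone (median -0.11), beside medians of -0.01 and 0.02 over all genes. C5ar1 was the member of smallest p in both, with levels of 89.3 and 73.4 CPM in vehicle microglia, 136 and 106 with clozapine and 125 and 89.8 with risperidone. Both drugs' libraries lay above vehicle, by 0.60 and 0.53 log2 within batch 1 and 2 for clozapine and by 0.49 and 0.29 for risperidone, and the edgeR estimates were 0.52 (SE 0.32) and 0.47 (SE 0.32). The next by p were C4b with clozapine (-0.44, SE 0.33) and Itgb2 with risperidone (0.25, SE 0.31). Between the drugs they were C4b (-0.39, SE 0.33) and C1qa (0.25, SE 0.36).

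In astrocytes, 0 of 9 genes and 0% of 31022 passed in the same 3 comparisons, and DESeq2 called 0 genes. At an unadjusted p under 0.05 stood 2, 0 and 1 of the 9 and 1.25%, 0.645% and 1.06% of all genes. The smallest p with clozapine were those of C3ar1 (log2 -3.24, SE 1.13) and Itgb2 (-1.56, SE 0.66). Their vehicle libraries were the least alike: C3ar1 held 11.0 CPM in batch 1 and 230 in batch 2 with vehicle, against 12.8 and 13.6 with clozapine. Within batch 1 the difference was 0.21 and within batch 2 it was -4.03, so the batches did not share a direction. With risperidone the smallest were C1qc (0.44, SE 0.46) and C5ar1 (-0.96, SE 1.02), and between the drugs C3ar1 (-2.67, SE 1.10) and Itgb2 (-1.22, SE 0.66).

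In neurons, 0 of 9 genes and 0% of 25510 passed, with 3, 0 and 0 of the 9 and 2.81%, 0.800% and 3.26% of all genes at an unadjusted p under 0.05. DESeq2 called 0 of the 9 and 20, 7 and 0 of all genes. All 9 log2 differences with clozapine were negative, from -4.16 to -0.66, led by C3ar1 (-4.16, SE 1.36) and Itgb2 (-2.73, SE 0.89). C3ar1 held 3.48 CPM in batch 1 and 280 in batch 2 with vehicle, against 12.5 and 3.17 with clozapine. It differed by 1.70 within batch 1 and by -6.25 within batch 2, in opposite directions. With risperidone C5ar1 (-1.82, SE 1.05) and Itgb2 (-1.29, SE 0.83) had the smallest p, and between the drugs C3ar1 (-2.28, SE 1.27) and C3 (-1.91, SE 1.07). Without the vehicle batch 1 neuron library, 5 of 9 genes passed with clozapine and 3 with risperidone, beside 0.936% and 0.51% of all genes. Without the vehicle batch 2 library 0 and 1 did, beside 0.044% and 0.0676%. For C3ar1 with clozapine the edgeR log2 difference was -5.14 without the former (adjusted p = 9.90e-13) and 1.10 without the latter (adjusted p = 0.996). For C5ar1 with risperidone it was -2.75 (edgeR adjusted p = 0.0188) and 1.84 (adjusted p = 1.00). The direction thus rested on which vehicle library was kept. Between the drugs, whose own libraries stayed the same, the C3ar1 estimate was -2.28 and -2.27 log2 when either vehicle library was left out. C3ar1 held 12.5 CPM in batch 1 and 3.17 in batch 2 with clozapine, against 15.2 and 63.9 with risperidone. A changed call in those fits cannot speak to the drugs, as the drug libraries were the same.

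The drug differences were also compared between fractions. For clozapine and for risperidone, the effect in microglia minus that in astrocytes or in neurons passed for 0 of 9 genes and 0% of 37310 (edgeR interaction, 18 libraries), and DESeq2 called 0 of the 9. At an unadjusted p under 0.05 stood 1 of the 9 for clozapine against astrocytes, 3 for clozapine against neurons and 0 for risperidone, beside 0.976%, 3.97%, 1.29% and 1.74% of all genes. The smallest p belonged to C5ar1 for clozapine against astrocytes (2.85, SE 1.36) and for risperidone against astrocytes (1.37, SE 1.33) and neurons (2.18, SE 1.36). For clozapine against neurons it belonged to Itgb2 (2.90, SE 1.07). None of the other complement genes was called in any drug comparison by edgeR, with 0 to 7 of up to 50 tested at an unadjusted p under 0.05.

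Between batches, C5ar1 passed in astrocytes and neurons, and C3 in neurons. In microglia 0 of 9 genes passed between batches, against 2% of all genes in either direction (edgeR, 18 libraries, treatments balanced), with 0 of the 9 at an unadjusted p under 0.05 and 0 by DESeq2. All 9 were lower in batch 2, by log2 differences of -0.63 for C3 to -0.10 for C3ar1. In astrocytes C5ar1 was higher in batch 2, 18.1 ± 13.8 against 2.29 ± 0.75 CPM (SD, n = 3 each; edgeR log2 2.76, SE 0.48, adjusted p = 0.000909), and 1 of 9 compares with 1.09% of all genes. C3ar1 (2.43, SE 0.78, edgeR adjusted p = 0.072), Itgb2 (1.18) and C3 (0.97) did not pass, and neither did C1qb (0.65), Itgam (0.61), C1qc (0.46), C1qa (0.17) or C4b (0.05). With 1 library left out at a time, the log2 difference stayed above 0 for C3ar1 (1.34 to 3.45), Itgb2 (0.59 to 1.79) and C3 (0.49 to 1.44). Whether C3ar1 and Itgb2 passed varied with the library left out. The ranges of C1qa, C1qb, C1qc and C4b crossed 0. With no filter on low counts 3 of the 9 passed, beside 4.43% of all genes.

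In neurons C5ar1 was again higher in batch 2, 10.6 ± 12.5 against 1.32 ± 0.38 CPM (edgeR log2 2.28, SE 0.56, adjusted p = 0.0174), against 4.36% of genes called higher. This held with vehicle and risperidone, while the clozapine pair went the other way, 1.71 CPM in batch 1 and 0.845 in batch 2. C3 was lower, 1.28 ± 0.48 against 6.36 ± 4.08 CPM (edgeR log2 -2.12, SE 0.44, adjusted p = 0.00799), against 3.58% called lower. C3ar1 (2.12), C1qb (1.21), Itgb2 (1.03), C1qc (0.89), C1qa (0.60), Itgam (0.36) and C4b (0.26) did not pass. With 1 library left out at a time, C3ar1 ran from 0.12 to 4.04, and whether it passed varied with the library. In the clozapine pair C3ar1 (12.5 CPM in batch 1, 3.17 in batch 2) and C1qb (47.2 and 3.49) were also lower in batch 2. Leaving out either clozapine neuron library takes that pair out of the comparison, and more of the 9 genes then passed. The C5ar1 call was lost without either vehicle neuron library, at 0.73 and 0.83, and that of C3 without either risperidone neuron library, at -1.43 for both. The olfactory receptor rate was 0.194 and 0.0667 CPM per kb in the vehicle neuron libraries of batch 1 and 2 and 0.294 and 0.0506 in the risperidone ones, and with it as a covariate neither gene passed in neurons, nor C5ar1 in astrocytes. Oligodendrocyte markers also differed between batches, at 27907 to 44002 CPM in batch 1 and 6959 to 10765 in batch 2 astrocyte libraries, and their part was not tested.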

How the data were processed

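Paired-end RNA-seq libraries were counted by the authors with featureCounts v2.0.8 on GRCm39, without strand and with reads over several genes counted for each, per the file headers; FastQC is named in the submitters' processing notes. For the aligner, no name was given in the sources used. The deposited values are raw counts for 56953 gene identifiers per library. Depth was 4.71 to 13.39 M, and p-values measure only the spread between these pools. The 9 genes, the gene lists and the tests were chosen with earlier results of these data known.

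Counts were scaled by the trimmed mean of M values, filtered by expression and tested with edgeR 4.0.16 (quasi-likelihood; R 4.3.3) across all genes, with Benjamini-Hochberg adjustment and a threshold of 0.05. Fractions and interactions were fitted on all 18 libraries as 9 group means, batches with a batch term per fraction, and drugs on the 6 libraries of a fraction. With 2 libraries against 2, an exact test of a single value cannot go below p = 0.333. Alternatives used DESeq2 1.42.0, other size factors, no filter, replicate blocks and left-out libraries. Text names all 9 genes for fractions, batches and marker-relative levels, and for drugs and interactions the called ones or else those of smallest p; of other complement genes it names the 6 of smallest p per fraction comparison and C4a, except 1 gene that is not reported here.

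Batch numbers come from the labels. Batch differences of different treatments correlated within each fraction (r 0.13 to 0.49 over 9 pairs), while those of different fractions of the same pools did not as a rule (r -0.39 to 0.15). No replicate pair differed by as little as sampling noise (chi-square per gene 14.0 to 57.4). Statistics were tested on simulated data.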

Additional observations from a re-analysis of the deposited data

Results flagged for a closer look

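C3ar1 in microglia had 1 library far from the others: vehicle batch 1 at 1271 CPM, where the other 5 lay between 1016 and 1097. On the log2(CPM + 0.5) scale its gap to the nearest was 0.655 of the whole range, above Dixon's critical value for 6 libraries. It was 1 of 27 sets tested, the 9 genes in 3 fractions, and chance alone marks about 1 set in 20. The same library held the highest summed microglia markers (5788 CPM, against 2715 to 3753), border macrophage markers (550 against 111 to 243) and dissociation response genes (9005 against 2999 to 5326). Their part in the C3ar1 level was not tested.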

How the results depend on the processing

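Across the alternatives, the count of the 9 genes called stayed within 1.5 times of its value in 314 cases, rose in 42 and fell in 27. Single log2 differences kept direction and call in 1636 cases, gained a call in 110, lost it in 56 and turned in 77. The causes were not tested. The fits with the olfactory receptor rate, or without the 4 libraries where it was high, were chosen after seeing the data.

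With a replicate block, 8, 8 and 3 of the 9 genes passed between microglia and astrocytes, microglia and neurons, and astrocytes and neurons. In each drug and interaction comparison 0 passed. Over all genes, the fits with the block called 4392 to 14492 between fractions. Marker-relative counts were 0 and 0 with the replicate block for microglia against astrocytes and neurons, where 64 sign flips cannot give a p below 0.0313 before adjustment. The block changed no other count of the 9. In vehicle libraries alone 1, 5 and 0 passed between fractions, and C4b turned to -0.0867 between microglia and neurons. Between astrocytes and neurons there, C1qb was -0.0314, C3ar1 -0.28 and Itgb2 -0.0678. Without the 4 libraries C1qb was -0.27, C3ar1 -1.81, C5ar1 -1.16 and Itgb2 -0.54. With the rate as a covariate 4 passed between microglia and neurons and 0 between astrocytes and neurons, and C3 was -0.14 and -0.45. Between batches the covariate left 0 in astrocytes (C3 -0.27) and 0 in neurons, where C1qa was -0.84, C1qb -1.17, C1qc -0.0553, C4b -0.86 and Itgam -0.59.

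With no low-count filter 8 passed between astrocytes and neurons. For clozapine, risperidone and between drugs, 2, 0 and 1 passed in astrocytes and 5, 1 and 1 in neurons. The same setting called 4 to 171 of all genes in the drug comparisons and 4 to 173 in the interactions. The clozapine interactions then gave 1 against astrocytes and 3 against neurons, and the astrocyte batches 3, with C4b at -0.00479. The astrocyte batches gave 2 at an adjusted p under 0.10 and 3 with that fraction alone. The neuron batches gave 1 with DESeq2 and 0 with that fraction alone. Relative to Cx3cr1 alone, 5 passed between microglia and astrocytes (C1qb -0.41, Itgam -0.42). Against neurons C1qa was -0.15, C1qc -0.29 and Itgam -0.0265, and between astrocytes and neurons C5ar1 was 0.11 and Itgb2 0.00887. With border macrophage markers added 7 and 6 passed, C1qa being 0.64 and C1qc 0.65 against astrocytes and C5ar1 0.0547 between astrocytes and neurons.

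Leaving out 1 library changed how many of the 9 genes passed between astrocytes and neurons, between astrocyte batches and between neuron batches. In neurons it also changed the count with clozapine, with risperidone and between drugs. Marker-relative counts were 0 to 0 without any 1 pool, against both other fractions. The lone library of a group was assumed to vary like the others. Log2 ranges that crossed 0 were, between astrocytes and neurons, C3ar1 from -0.55 to 2.34 and, with clozapine, C3ar1 from -4.13 to 0.27 in astrocytes and from -5.48 to 1.10 in neurons. With risperidone they were C1qc from -0.10 to 1.36 and C5ar1 from -3.48 to 1.58 in astrocytes, and C5ar1 from -3.20 to 1.84 and Itgb2 from -2.12 to 0.85 in neurons. Between drugs in neurons C3 ran from -2.78 to 0.87. The risperidone interaction of C5ar1 ran from -1.20 to 3.71 against astrocytes and from -1.56 to 3.803 against neurons. Between microglia batches these were C1qc from -0.36 to 0.0541, C3ar1 from -0.14 to 0.0796 and C4b from -0.20 to 0.0214. Between astrocyte batches they were C1qa from -0.51 to 0.62, C1qb from -0.15 to 1.19, C1qc from -0.0765 to 0.83 and C4b from -0.17 to 0.21. Between neuron batches they were C1qa from -0.31 to 2.00, C1qb from -0.91 to 2.97, C1qc from -0.49 to 2.35, C4b from -0.15 to 0.94, Itgam from -1.13 to 1.76 and Itgb2 from -0.28 to 2.24. Marker-relative values crossed 0 for C1qa from -0.0861 to 0.0451 and C1qc from -0.0570 to 0.0505 between microglia and astrocytes. Between astrocytes and neurons they did for C5ar1 from -0.28 to 0.0864 and Itgam from -0.12 to 0.28.

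Over all genes, 4861 to 17558 were called between fractions, but 1 to 1810 in vehicle libraries alone, 7 to 5353 with the covariate and 8820 to 24947 without the 4 libraries. Leaving out 1 library gave 3423 to 21438. Drug comparisons called 0 to 0 genes, 4 to 171 with no filter, 0 to 20 with DESeq2, 0 to 10 with the replicate block and 0 to 266 without 1 library. Batches called 745 to 2961 genes, 1346 to 4471 with DESeq2, 85 to 1750 with a fraction alone and 17 to 1048 with the covariate. As few as 6 counts of C5ar1 and 14 of C1qc in a neuron library limited what could be seen there.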

Other observations

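Within the 6 microglia libraries, Pearson r of log2 levels among the C1q chains was 0.81 between C1qa and C1qb, 0.92 between C1qa and C1qc and 0.93 between C1qb and C1qc, and each chain gave 0.95 to 0.96 with Itgam. C5ar1 gave 0.29 to 0.39 with the chains, -0.05 with C3ar1, -0.33 with C4b and 0.70 with Itgb2. The genes closest to C1qa there, among 12576, were Gbp7, an interferon-induced GTPase, Tlr2, a receptor for bacterial lipoproteins, and Ctss, a lysosomal protease (r 0.986 to 0.9895). Those closest to Itgam were Mpeg1, Lgmn and Ccl24 (r 0.995 to 0.997). These describe 6 libraries that share batches and treatments.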
